A study of Mus musculus with 16 samples.

Results

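The enzymes described here make serine from glucose carbon and pass its side-chain carbon through folate, in the cytosol and in mitochondria. They were taken by gene symbol from the deposited array table. The list held 9 genes, each was found as 1 probe set, and the table named 19505 genes in all. Of the 9, 5 act in the cytosol: the serine synthesis enzymes Phgdh, Psat1 and Psph and the folate enzymes Shmt1 and Mthfd1. The other 4, Shmt2, Mthfd2, Mthfd1l and Aldh1l2, are mitochondrial folate enzymes.

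The study asked how vitamin B12 (cyanocobalamin) affects gene expression in kidney tubule cells exposed to hypoxia and reperfusion (H/R). The cells were BU.MPT, a mouse proximal tubular line carrying, as background, a conditional SV40 large T antigen that is induced by interferon and inactive at high temperature, and all groups were grown at 39 °C without interferon. Control cells were kept in 21% oxygen, 10% serum and 4.5 g/L glucose, and control+B12 cells in the same medium with 0.3 µM B12. H/R cells spent 3 h at about 1% oxygen in medium without glucose or serum, then 1 h back in oxygen with both restored, and H/R+B12 cells went through the same with 0.3 µM B12. Each group had 4 arrays, 16 in all. Oxygen, glucose and serum changed together, so their parts in any H/R difference cannot be told apart, nor can those of the 3 h without them and the 1 h of their return. Whether the 4 arrays of a group came from separate cultures is not stated in the sources used here. The p-values therefore speak of the spread between these arrays, which may be technical. In RNA from a whole culture, fewer cells that express a gene and less RNA per cell cannot be told apart.

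Serine is made from a glycolytic intermediate in successive steps by Phgdh, Psat1 and Psph. Serine hydroxymethyltransferase (Shmt1 in the cytosol, Shmt2 in mitochondria) splits serine into glycine and a carbon unit that is carried on tetrahydrofolate. In mitochondria Mthfd2 oxidises that unit to formyl-folate, and Mthfd1l then releases it as formate while Aldh1l2 oxidises it to carbon dioxide. Formate leaves for the cytosol, where Mthfd1 recaptures it on folate for purine, thymidylate and methionine synthesis. The cobalamin-dependent methionine synthase Mtr sits at the methionine end of this cytosolic cycle. Proximal tubule cells are known for active serine and folate handling, and the transcription factor ATF4 is known to drive many serine and mitochondrial folate genes under amino acid or mitochondrial stress.

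The arrays were alike in overall signal. Within-group correlations over probe sets were 0.990 to 0.994. The median log2 signal of an array was 5.28 to 5.37 in normal culture and 5.21 to 5.29 after H/R. Negative control features lay at a median of 5.72 to 6.23 and a 95th percentile of 10.1 to 10.6 (log2), so a signal below about 10 overlaps that background. Of 14 proximal tubule markers on the array, Aqp1 and Mme lay above the 95th percentile of the negative controls on all 16 arrays, while 11, among them Lrp2, Cubn, Slc34a1 and Hnf4a, did so on 0. Pax2, Pax8 and Cdh16 were among 4 of 9 general kidney epithelial markers above it on every array, while 4, Cdh1, Epcam, Krt19 and Lhx1, were above it on 0. None of 12 distal nephron, 7 fibroblast, 7 endothelial or 6 leukocyte markers reached it on any array. The titles place 8 arrays in the B12 groups, but 6 of their descriptions carry another number in place of B12, and the titles were followed.

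The promoter letters of the cytosolic enzymes Shmt1 and Mthfd1 and of their mitochondrial counterparts are shown because the results set these enzymes against each other. The windows are those of RefSeq on build GRCm38.p6 and held 8 of the 9 genes, all but Aldh1l2. Each sequence below is the 250 bases before the gene's start, 5′ to 3′ on the gene's own strand, with capitals marking the letters GGGCGG or CCAAT found on either strand. Shmt1 lies at chr11:60811266-60811515 on the minus strand, Mthfd1 at chr12:76254982-76255231 on the plus strand, Shmt2 at chr10:127522445-127522694 on the minus strand, Mthfd1l at chr10:3972825-3973074 on the plus strand and Mthfd2 at chr6:83317605-83317854 on the minus strand.
Shmt1: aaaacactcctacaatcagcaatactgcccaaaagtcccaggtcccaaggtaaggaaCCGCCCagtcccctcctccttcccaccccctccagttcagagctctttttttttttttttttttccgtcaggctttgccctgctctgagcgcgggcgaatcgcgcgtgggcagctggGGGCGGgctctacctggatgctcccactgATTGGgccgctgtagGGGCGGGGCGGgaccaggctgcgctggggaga
Mthfd1: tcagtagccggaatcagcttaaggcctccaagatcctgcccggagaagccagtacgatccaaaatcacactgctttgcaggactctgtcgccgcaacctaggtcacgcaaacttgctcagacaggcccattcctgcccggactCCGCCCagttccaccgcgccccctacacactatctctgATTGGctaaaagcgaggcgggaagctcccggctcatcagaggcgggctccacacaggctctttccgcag
Shmt2: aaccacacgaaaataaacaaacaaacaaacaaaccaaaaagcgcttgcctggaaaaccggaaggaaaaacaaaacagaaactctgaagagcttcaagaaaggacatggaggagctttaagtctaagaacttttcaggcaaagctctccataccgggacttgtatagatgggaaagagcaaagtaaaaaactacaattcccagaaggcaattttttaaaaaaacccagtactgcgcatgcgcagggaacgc
Mthfd1l: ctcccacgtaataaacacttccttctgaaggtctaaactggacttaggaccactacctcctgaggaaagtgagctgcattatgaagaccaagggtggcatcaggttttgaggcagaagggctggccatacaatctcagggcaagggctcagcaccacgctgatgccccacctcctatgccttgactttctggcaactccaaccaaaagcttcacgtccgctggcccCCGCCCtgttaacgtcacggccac
Mthfd2: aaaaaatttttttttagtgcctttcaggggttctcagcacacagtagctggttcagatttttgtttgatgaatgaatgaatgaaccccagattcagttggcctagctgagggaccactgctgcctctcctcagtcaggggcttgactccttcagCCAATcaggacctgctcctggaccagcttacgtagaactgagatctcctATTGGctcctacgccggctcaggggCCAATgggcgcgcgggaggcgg

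GGGCGG is the core letter string of GC boxes and CCAAT that of CCAAT boxes. The cytosolic Shmt1 window held 4 GGGCGG matches, of which 2 overlap, and 1 CCAAT match, whereas the window of its mitochondrial counterpart Shmt2 held 0 of each. Mthfd2 had 3 CCAAT matches and 0 GGGCGG matches, Mthfd1l had 1 GGGCGG match and 0 CCAAT matches, and the cytosolic Mthfd1 had 1 of each. In the full windows of 300 bases, which run past the start, GGGCGG was found in 5 of the 8 genes against 35.7% of all 32851 windows, and CCAAT in 6 of 8 against 37.4%. The 8 genes had 9 windows, since Psat1 had 2, and a gene counted where either held a match. Psat1 held GGGCGG in only 1 of its windows, so counts of genes and shares of windows are not quite alike. The share of G and C letters ran from 42.7% (Shmt2) to 66.7% (a Psat1 window), against a median of 52.7% over all windows. TGATGNAA, the core of the element that ATF4 binds, was found in 0 of 8 (3.97% of all windows), and the E-box CACGTG in 0 of 8 (7.15%). TGACGT was found in 2 of 8, Psph and Mthfd1l (7.51% of all windows). Every motif was searched on both strands and overlaps were allowed. Only the first searches, TGATGNAA and the E-box, were planned, and the other strings were added later. A match is a description of these letters, and its absence says only that they are not in this window.

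H/R raised the 4 mitochondrial enzymes and lowered 3 of the 5 cytosolic ones. After H/R without B12 the mitochondrial enzymes rose: Mthfd2 12-fold, Aldh1l2 4.76-fold, Mthfd1l 3.0-fold and Shmt2 1.34-fold, the first 3 from control signals within the range of the negative controls. In the cytosol Phgdh fell 1.49-fold, Shmt1 1.5-fold and Mthfd1 1.64-fold, while Psat1 (log2 difference 0.47 ± 0.174, SE) and Psph (-0.29 ± 0.225) did not pass the test. In all, 7 of 9 enzymes passed at an adjusted p under 0.05 (limma, Benjamini-Hochberg over 22206 probe sets, n = 4 arrays a group), 4 higher and 3 lower. The same rule called 17.6% of all probe sets, 8.11% higher and 9.54% lower. Only 4 of the 7 calls, those of Mthfd2, Mthfd1l, Aldh1l2 and Phgdh, held under all 24 alternative settings and left-out arrays. The median log2 difference was 0.42 over the 9 enzymes and -0.02 over all probe sets.

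With B12 in the medium of both groups, H/R+B12 against control+B12 called 6 of the 9, 5 higher and 1 lower, against 18.7% of all probe sets, 9.04% of them higher and 9.61% lower. Psat1 joined the enzymes that were higher, and Shmt1 and Mthfd1 did not pass. Averaging the H/R difference over both B12 states, 8 arrays against 8, was added after these values were seen, because several calls depended on single arrays. It called 8 of the 9, 5 higher and 3 lower, against 27.2% of all probe sets (12.5% higher and 14.7% lower). Psph alone did not pass. The averaged comparison is not independent of the 2 that it combines. Centring each array on its median changed the split of all calls, from 46% higher of the 3919 to 56.4% of 3779 without B12, and from 48.5% of 4142 to 60.1% of 4022 with B12. The direction of the difference in each of the 9 enzymes was the same under that centring and under quantile normalization.

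Mthfd2 had the largest change of the 9. Its log2 signal was 10.35, 9.39, 9.27 and 10.13 on the 4 control arrays and 9.50, 10.23, 9.67 and 9.77 with B12. After H/R it was 13.37, 13.35, 13.37 and 13.39, and after H/R with B12 it was 13.21, 13.26, 12.88 and 13.46. All 8 H/R arrays lay above all 8 arrays in normal culture, and the gap was 3.01 between the nearest H/R and control arrays. The control arrays spread over more than a unit (SD 0.533), whereas the 4 H/R arrays without B12 were nearly identical (SD 0.0155). The log2 difference was 3.58 ± 0.225 (SE; adjusted p = 3.9e-08 by limma with Benjamini-Hochberg adjustment), a fold of 12 with a 95% interval of 8.63 to 16.7. With B12 the difference was 3.41 (10.6-fold, adjusted p = 5.32e-08 by limma). Among all 22206 probe sets this was the 7th largest increase without B12 and the 11th with it. In normal culture the signal exceeded the negative controls' 95th percentile on 0 of 4 control and 1 of 4 control+B12 arrays, and after H/R on all 8. The fold, its interval and the rank are thus taken from a baseline within the background. With each control array set at that percentile, a mean of 10.31 against 13.37 after H/R, Mthfd2 was at least 8.36-fold higher.

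Mthfd1l, which releases formate, followed the same pattern at a smaller size. The control arrays read 9.65, 9.93, 9.53 and 9.23 and the control+B12 arrays 9.48, 9.09, 9.38 and 9.27. The H/R arrays read 11.04, 11.37, 11.22 and 11.05, and the H/R+B12 arrays 11.26, 11.36, 11.36 and 10.68. The H/R states did not overlap normal culture, and the lowest H/R value, 10.68, belonged to 1 array that stood apart from the other 3 of its group. The log2 difference was 1.58 ± 0.18 without B12 (3.0-fold, 95% interval 2.3 to 3.91, adjusted p = 1.34e-05 by limma) and 1.86 with B12 (3.63-fold, adjusted p = 2.51e-06 by limma). All 8 normal culture arrays were below the negative controls' 95th percentile and all 8 H/R arrays above it. With the former set at that percentile, Mthfd1l was at least 1.82-fold higher without B12 and with it.

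Aldh1l2, the mitochondrial formyl-folate dehydrogenase that yields NADPH, was dim throughout. Its log2 signal on the control arrays was 5.74, 5.50, 6.84 and 6.15, above the negative controls' median on 2 of the 4, and 6.20, 7.07, 6.51 and 6.49 with B12. H/R arrays gave 8.34, 8.43, 8.58 and 7.88, and H/R+B12 arrays 9.03, 8.25, 8.10 and 8.35. The lowest H/R array was higher than every array in normal culture, but no array of any group passed the negative controls' 95th percentile. The log2 difference was 2.25 ± 0.28 without B12 (4.76-fold, 95% interval 3.15 to 7.17, adjusted p = 2.97e-05 by limma) and 1.87 with B12 (3.65-fold, adjusted p = 0.000164 by limma). At so dim a signal the fold on the array may not equal the fold in RNA.

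Shmt2 opens the mitochondrial branch and changed least of its 4 enzymes. It read 11.29, 11.48, 11.33 and 11.24 in control and 10.95, 11.32, 11.19 and 11.26 in control+B12 arrays. After H/R it read 11.89, 11.82, 11.78 and 11.52, and after H/R+B12 11.69, 11.98, 11.58 and 11.67. The groups did not overlap, but the nearest H/R and control arrays were only 0.0389 apart. The log2 difference of 0.42 ± 0.136 had an adjusted p of 0.0428 by limma, and it lost the call in 11 of 24 alternatives, with an adjusted p of up to 0.117. These include leaving out any of control 1, 3 and 4 or H/R 1, 2 and 3. With B12 the difference was 0.55 (adjusted p = 0.00817 by limma) and kept its call in all 24. Averaged over both B12 states it was 0.48 ± 0.0961 (adjusted p = 0.000906 by limma).

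**Figure D1:**
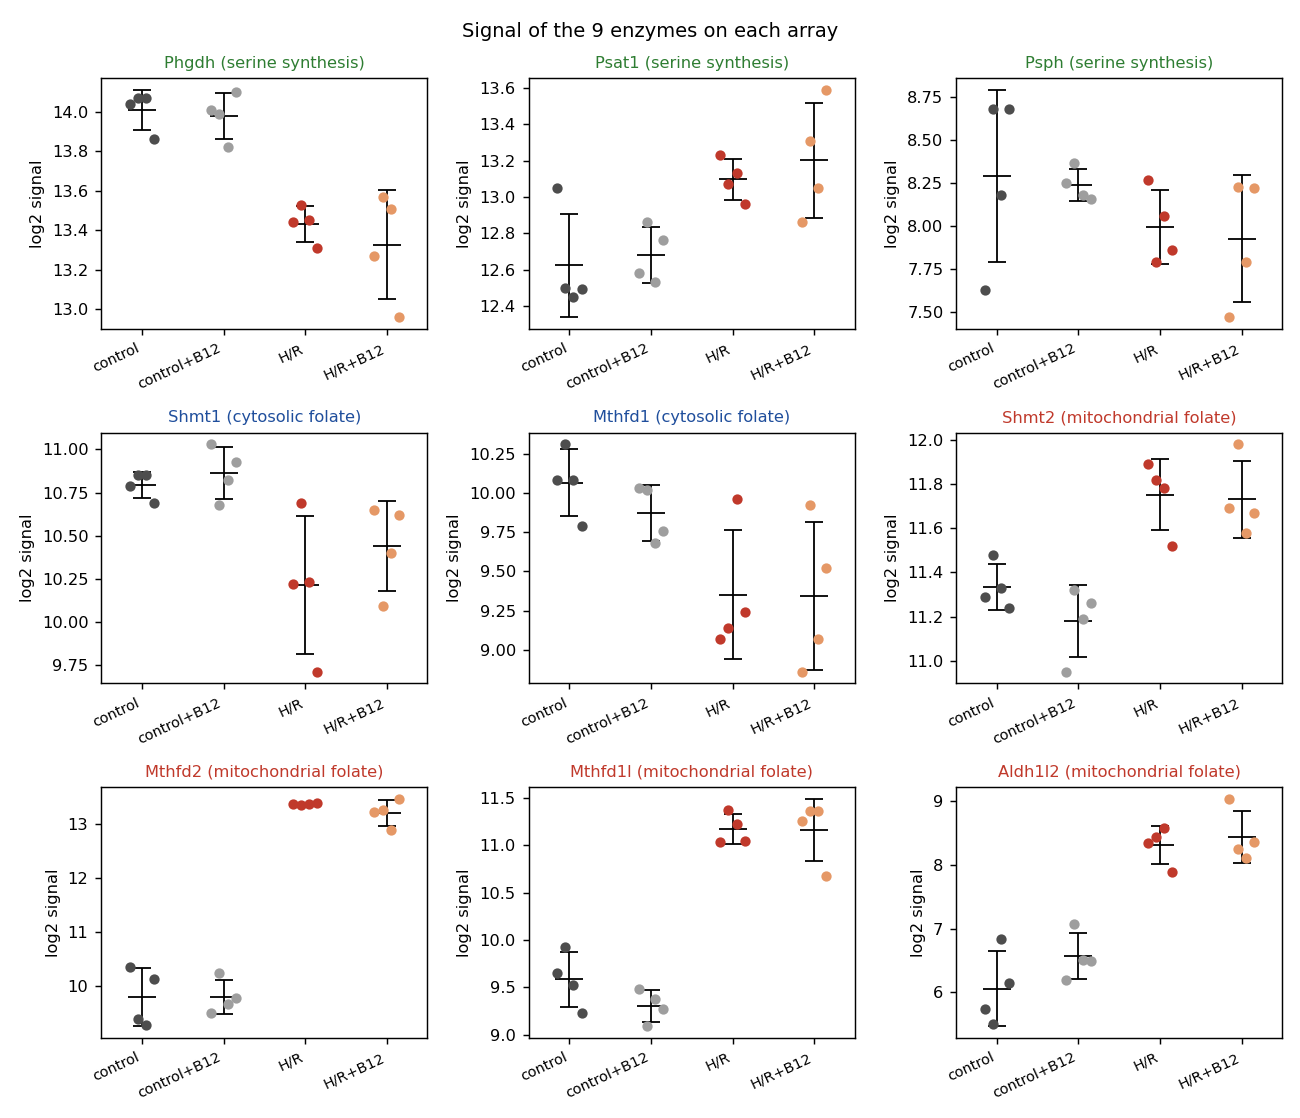
Log2 signal of each of the 9 enzymes on each array (points), with the mean and SD of each group of 4 (bars), on a separate axis for each enzyme. The H/R and H/R+B12 arrays of Mthfd2, Mthfd1l and Aldh1l2 lie apart from and above the normal culture arrays, those of Phgdh lie below them, and those of Psph and Mthfd1 overlap them.

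Of the serine synthesis enzymes, Phgdh and Psat1 went in opposite directions. Phgdh, which starts the pathway, read 14.04, 14.07, 14.07 and 13.86 in control and 14.01, 13.99, 13.82 and 14.10 in control+B12 arrays. It read 13.44, 13.53, 13.45 and 13.31 after H/R and 13.27, 13.57, 13.51 and 12.96 after H/R+B12. Every H/R array was lower than every array in normal culture. The log2 difference was -0.57 ± 0.142 (adjusted p = 0.00889 by limma) without B12 and -0.65 with B12 (adjusted p = 0.00349 by limma), and both calls held in all 24 alternatives.

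Psat1, the aminotransferase of the next step, read 13.05, 12.50, 12.45 and 12.49 in control and 12.58, 12.86, 12.53 and 12.76 in control+B12 arrays. It read 13.23, 13.07, 13.13 and 12.96 after H/R and 12.86, 13.31, 13.05 and 13.59 after H/R+B12. The groups overlapped in both comparisons, without B12 through control 1 alone, whose signal of 13.05 exceeded the lowest H/R array. The log2 difference of 0.47 ± 0.174 did not pass (adjusted p = 0.0748 by limma). It passed without control 1 (0.62, adjusted p = 0.0186), after centring (0.0406) and with an intensity trend and robust variances (0.0121). With B12 the difference of 0.52 passed narrowly (adjusted p = 0.0482 by limma) and lost its call in 17 of 24 alternatives, among them leaving out H/R+B12 4 (0.157), H/R+B12 2 (0.114), H/R+B12 3 (0.0562), control+B12 1 (0.108), control+B12 3 (0.117) and control+B12 4 (0.0704). Averaged over both B12 states Psat1 was higher by 0.50 ± 0.123 (adjusted p = 0.00542 by limma).

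Psph, the phosphatase of the last step, ranged from 7.63 to 8.68 in control, 8.16 to 8.37 in control+B12, 7.79 to 8.27 in H/R and 7.47 to 8.23 in H/R+B12 arrays. It lay below the negative controls' 95th percentile on all 16 arrays, and its groups overlapped. The differences were -0.29 ± 0.225 without B12 (adjusted p = 0.464 by limma), -0.31 with B12 (0.406) and -0.30 ± 0.159 averaged (0.194). Without control 1, its lowest control array, the averaged difference was -0.41 and passed (0.0354). The change of Psat1 exceeded that of Phgdh by 1.05 ± 0.215 log2 units (SE) without B12 and by 1.17 with B12, a contrast chosen after the values were seen and given with no test.

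The cytosolic folate enzymes Shmt1 and Mthfd1 were lower after H/R. Shmt1 read 10.79, 10.85, 10.85 and 10.69 in control and 11.03, 10.68, 10.82 and 10.93 in control+B12 arrays. It read 10.22, 10.69, 10.23 and 9.71 after H/R and 10.65, 10.09, 10.40 and 10.62 after H/R+B12. H/R 2 and control 4 differed only by 0.00014, so the groups met without overlapping, and H/R 4 lay lowest of all 16. Shmt1 exceeded the negative controls' 95th percentile on all 4 control and all 4 control+B12 arrays. After H/R it did so on 1 of 4 arrays and after H/R+B12 on 3 of 4, so the size of its fall is not exact. The log2 difference was -0.58 ± 0.184 (adjusted p = 0.0363 by limma), and 10 of 24 alternatives lost the call, among them leaving out H/R 4 (-0.41, adjusted p = 0.126), H/R 1 (0.0698), H/R 3 (0.0673) or any 1 of the 4 control arrays (0.052 to 0.0794). With B12 the difference was -0.43 (adjusted p = 0.13 by limma), and averaged it was -0.50 ± 0.13 (0.00696).

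Mthfd1, which recaptures formate and interconverts the cytosolic folate forms, read 10.08, 10.31, 10.08 and 9.79 in control and 10.03, 10.02, 9.68 and 9.76 in control+B12 arrays. It read 9.07, 9.14, 9.96 and 9.24 after H/R and 8.86, 9.92, 9.07 and 9.52 after H/R+B12. In each H/R state 1 array, H/R 3 at 9.96 and H/R+B12 2 at 9.92, lay within the range of normal culture, and the groups overlapped. No array passed the negative controls' 95th percentile. The log2 difference was -0.72 ± 0.231 (adjusted p = 0.0413 by limma) and lost its call in 9 of 24 alternatives (up to 0.12), among them leaving out control 1, 2 or 3 or H/R 1, 2 or 4. With B12 it was -0.53 (0.137), and passed without H/R+B12 2 (-0.72, adjusted p = 0.037). Averaged it was -0.62 ± 0.163 (0.00802).

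Counting groups that did not overlap gave 4 enzymes higher and 2 lower, with 3 overlapping, in each of the 2 H/R comparisons. Over all probe sets 20.9% did not overlap without B12 and 21.5% with B12. The 2 comparisons use different arrays.

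**Figure D2:**
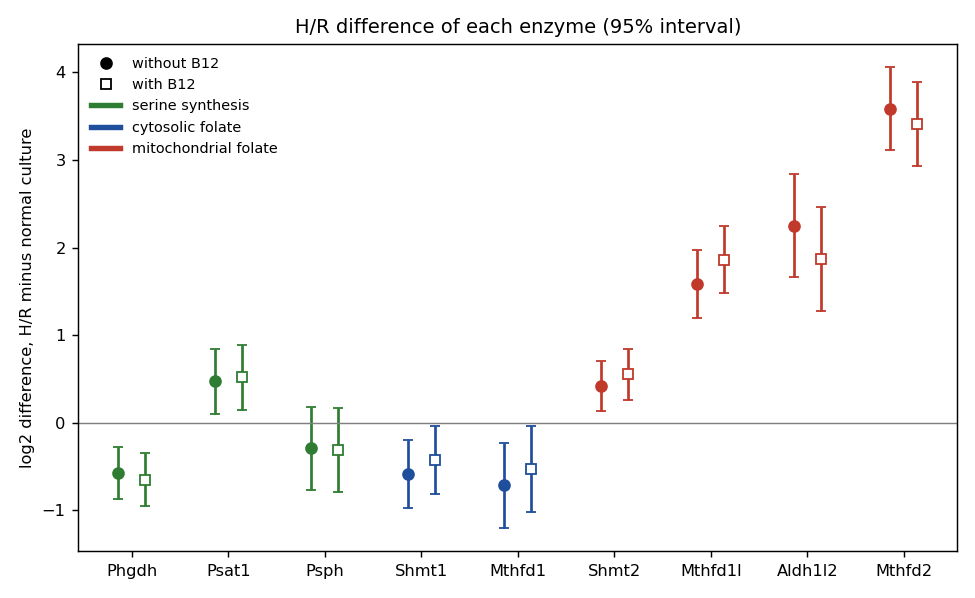
Log2 difference of each enzyme between H/R and normal culture, without B12 (filled circles) and with B12 (open squares), with 95% intervals from the fit over all probe sets. The 4 mitochondrial enzymes lie above 0, up to 3.58 for Mthfd2, as does the cytosolic Psat1, and Phgdh, Shmt1 and Mthfd1 lie below 0. The intervals of Psph include 0.

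Set against each other by compartment, the mitochondrial enzymes gained on the cytosolic ones on each H/R array. The mean log2 signal of the 4 mitochondrial enzymes, relative to the control mean, was 1.96 (SD 0.133, n = 4) after H/R and 1.94 (SD 0.148) after H/R+B12, and 0.02 in control+B12. That of Shmt1 and Mthfd1 was -0.65 (SD 0.277) after H/R, -0.54 (SD 0.171) after H/R+B12 and -0.06 in control+B12. The 3 serine synthesis enzymes averaged -0.13 (SD 0.115) after H/R and -0.15 (SD 0.22) after H/R+B12, where Phgdh and Psat1 offset each other. The mean of the 4 mitochondrial minus the mean of the 5 cytosolic enzymes was 2.28, 2.36, 2.24 and 2.31 on the H/R arrays and 2.65, 2.15, 2.18 and 2.02 on the H/R+B12 arrays, relative to the control mean. In normal culture the same quantity ran from -0.24 to 0.21 over 8 arrays. The SD of this quantity was 0.0534 in H/R and 0.273 in H/R+B12, against 0.162 in control and 0.171 in control+B12. A difference in spread was not tested. The difference between H/R and control was 2.30 ± 0.129 (SE; 95% interval 2.02 to 2.58), and with B12 it was 2.20 ± 0.129 (1.92 to 2.48). These scores were formed over enzymes chosen with earlier results known and carry no test. They include Aldh1l2, Psph and Mthfd1, which lay below the negative controls' 95th percentile on every array, so their sizes are not exact.

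In the 3 pairs compared, which leave out Aldh1l2, the signal of the mitochondrial enzyme gained on that of the cytosolic one. Shmt2 gained 1.00 ± 0.207 log2 units on Shmt1 after H/R and 0.98 with B12. Mthfd1l gained 2.30 ± 0.28 on Mthfd1, the cytosolic enzyme that carries the same formyl-folate synthetase activity, and 2.39 with B12. Mthfd2 gained 4.30 ± 0.335 on Mthfd1, which also carries the dehydrogenase activity, and 3.94 with B12. Mthfd1 was below the negative controls' 95th percentile on all 16 arrays, Mthfd1l on all normal culture arrays and Mthfd2 on all control arrays. Shmt1 exceeded that percentile on only 1 of 4 H/R and 3 of 4 H/R+B12 arrays. The sizes of the gains in all 3 pairs are thus not exact. The values are differences between changes, not between levels, since signals of different probe sets are not on a common scale.

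**Figure D3:**
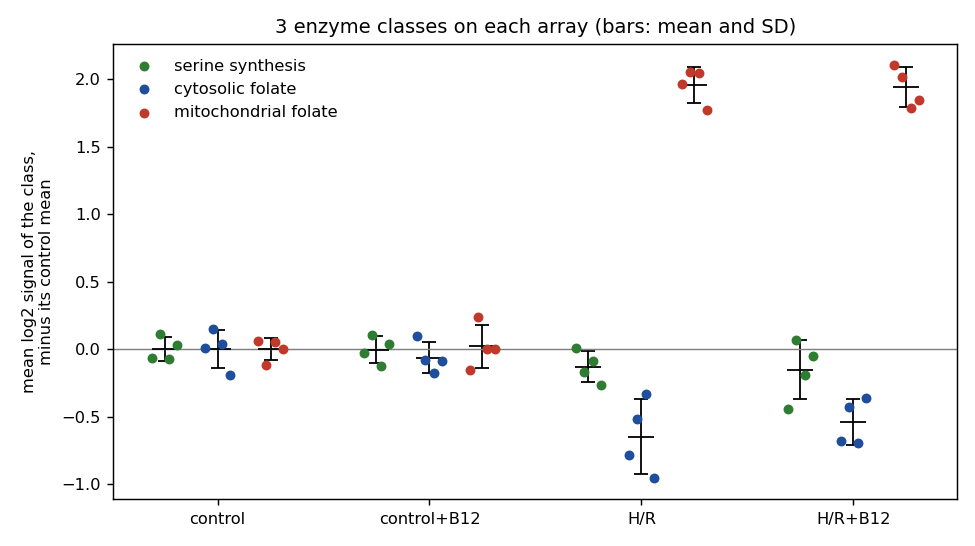
Mean log2 signal of the serine synthesis (3), cytosolic folate (2) and mitochondrial folate (4) enzymes on each array, minus the mean of the control arrays, with the mean and SD of each group of 4. The mitochondrial enzymes lie near 1.96 after H/R and 1.94 after H/R+B12, and the cytosolic folate enzymes lie below 0 on all 8 of these arrays.

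B12 itself gave no call among the 9 enzymes. H/R+B12 against H/R called 0 of 9 and 0% of all probe sets at an adjusted p under 0.05 by limma, and at an unadjusted p under 0.05 it called 0 of 9 and 1010 of 22206. The same held for control+B12 against control (0 of 9 and 0%, and 0 and 1280 unadjusted) and for the interaction of H/R and B12 (0 of 9 and 0%, and 0 and 1071 unadjusted). In H/R cells the B12 differences ran from -0.17 for Mthfd2 to 0.23 for Shmt1, and their 95% intervals together spanned -0.65 to 0.72. In normal culture they ran from -0.28 for Mthfd1l to 0.51 for Aldh1l2, with intervals spanning -0.68 to 1.1. Aldh1l2 had the largest of these, 0.51 ± 0.28 (95% interval -0.0837 to 1.1, unadjusted p = 0.0875 by limma), on arrays where its signal was close to background. For Shmt2 the intervals were narrower, -0.31 to 0.27 in H/R and -0.45 to 0.13 in normal culture. The interaction, the change of the H/R difference with B12, ran from -0.38 for Aldh1l2 to 0.27 for Mthfd1l. Its intervals ran from -1.22 at their lowest, for Aldh1l2, to 0.88 at their highest, for Mthfd1, and were narrower for others (-0.504 to 0.346 for Phgdh, -0.272 to 0.542 for Shmt2). That Shmt1 and Mthfd1 passed without B12 and not with it is not shown to be a difference: their interaction estimates were 0.16 ± 0.26 and 0.19 ± 0.327. For the compartment contrast the interaction was -0.10 ± 0.182 (95% interval -0.493 to 0.302).

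**Figure D4:**
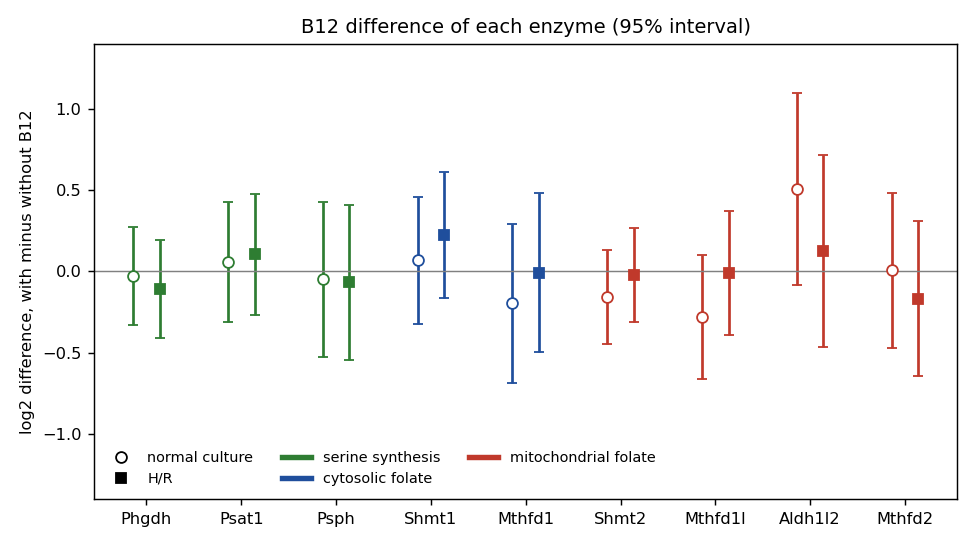
Log2 difference of each enzyme with minus without B12, in normal culture (open circles) and after H/R (filled squares), with 95% intervals from the fit over all probe sets. Every interval includes 0, and the widest are those of Aldh1l2.

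Other genes of the pathway did not follow their compartment as a block. The counts below are at the same threshold (limma, Benjamini-Hochberg over all probe sets), for H/R against control unless B12 is named, and the background is the same 8.11% higher and 9.54% lower. Of 11 further mitochondrial folate, glycine and formate genes, 0 were higher and 2 lower. Their median log2 difference of -0.19 had no stable sign, since it was 0.20 without H/R 4, and 1 gene was higher without H/R 4 or control 3 or under centring. The 2 were Gcsh, a subunit of the glycine cleavage system (-0.79 ± 0.149, adjusted p = 0.00115), and Sfxn3, a serine transporter family member (-0.64 ± 0.149, 0.00591). Slc25a32, the mitochondrial folate carrier (0.21 ± 0.286, 0.72), and Gldc, the glycine decarboxylase (0.32 ± 0.184, 0.291), did not pass, and Gldc, whose signal was 2.12 to 3.11 in control, passed without control 3 (0.0408). Slc25a32, Gldc, Amt, Sardh, Dmgdh and Mtfmt lay below the negative controls' 95th percentile on every array, so changes in them are poorly measured. Mthfd2l, above it on every array, did not pass (0.28 ± 0.184, adjusted p = 0.378 by limma). With B12 the count was 1 higher (Dld, 0.51 ± 0.126) and 2 lower.

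A list of 11 further cytosolic and nuclear folate genes also held folate carriers and receptors of the membrane. Of these 11, 0 were higher and 4 lower after H/R (3 lower under quantile normalization). Only Tyms, on every array, and Mtr, in normal culture, exceeded the negative controls' 95th percentile. The other genes of the list, Slc19a1 included, lay below it on every array, so the count and the median are poorly measured. The median of -0.42 shrank to -0.12 without control 3 and was -0.63 without control 4. With B12 it was -0.30, and 0.08 without control+B12 2. Tyms, thymidylate synthase, fell by 1.02 on the log2 scale, from 12.91 to 13.51 in control to 12.07 to 12.34 after H/R (SE 0.149, adjusted p = 0.000134 by limma). Mtr, the B12-dependent methionine synthase, fell by 0.92 (SE 0.172, adjusted p = 0.00108), from 10.41 to 11.08 in control to 9.67 to 10.0 after H/R, where it was below the negative controls' 95th percentile on all 4 arrays. The folate receptor Folr1 (-1.49 ± 0.282, 0.00121) and the proton-coupled folate transporter Slc46a1 (-1.08 ± 0.334, 0.0321) were the other two, both dim. With B12, Mtr differed by -0.99 ± 0.172 and Tyms by -0.57 ± 0.149 (adjusted p = 0.000621 and 0.0117 by limma), and the count was 1 higher (Slc19a1, the reduced folate carrier, 0.74 ± 0.225) and 3 lower. The interaction called neither Mtr nor Tyms.

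Of 10 purine synthesis genes, 1 was higher, Gmps, which makes guanylate (0.51 ± 0.131, 0.0109), and 1 lower, Prps2, which makes the ribose-phosphate donor (-0.65 ± 0.179, 0.0166). The call of Prps2 was lost without control 3 (0.0503) or H/R 3 (0.0632). With B12 the count was 3 higher and 1 lower, and 1 and 1 under quantile normalization. Gart (-0.29 ± 0.167, adjusted p = 0.298 by limma) and Atic (0.07 ± 0.173, 0.868), the enzymes of this list that take a formyl group from folate, were singled out after their values were seen and did not pass. Of 12 methionine cycle and transsulfuration genes, 0 were higher and 2 lower, Mtr again and Ahcy, which hydrolyses S-adenosylhomocysteine (-0.75 ± 0.167, adjusted p = 0.00419 by limma, and -0.40 ± 0.167 with B12, 0.123). With B12 the count was 1 higher and 1 lower.

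Slc1a4 and Slc6a9, which carry serine and glycine across the membrane, rose from dim signals. Of 15 genes of serine and glycine transport and use, 4 were higher and 2 lower, in both H/R comparisons (without B12 also 4 and 1 under centring, and 3 to 4 and 1 to 3 over left-out arrays). Slc1a4, a neutral amino acid transporter that takes serine, went from 3.61 to 5.72 in control to 7.34 to 8.04 after H/R, a difference of 2.82 ± 0.34 (adjusted p = 2.17e-05 by limma). The glycine transporter Slc6a9 differed by 1.60 ± 0.203 (3.58e-05). Both were below the negative controls' 95th percentile on all 16 arrays, and the control signal of Slc1a4 was also below their median, so these sizes are not exact. Ptdss2, a phosphatidylserine synthase, differed by -0.61 ± 0.132 (0.00347) and by -0.41 ± 0.132 with B12 (0.0366, lost under centring at 0.118 and without H/R+B12 3 at 0.116).

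Known ATF4 targets outside one-carbon metabolism rose almost throughout. Of 18 such genes, 16 were higher and 0 lower, without and with B12, with medians of 1.43 and 1.61, against -0.02 and -0.04 over all probe sets. The list was put together with earlier results of these data known, so its count is not independent evidence of its direction. Trib3, Chac1, Sesn2, Slc7a11, Atf5 and Gpt2 lay below the negative controls' 95th percentile on every array. The sizes of their differences, and the medians, are thus not exact. Atf3, a stress-induced transcription factor, differed by 3.64 ± 0.197 (adjusted p = 8.23e-09 by limma) from control arrays within background (at least 1.62-fold higher against the same floor), the transporter Slc7a5 by 2.93 ± 0.222 (2.35e-07) and the tRNA synthetase Cars by 2.64 ± 0.194 (1.9e-07). Slc7a5 exceeded that floor on only 1 of 4 control arrays and Cars on 2 of 4, so the sizes of these differences are not exact either. Of 12 regulators, 5 were higher and 1 lower (0 lower under centring), and 6 and 0 with B12. Atf4 differed by 1.61 ± 0.15 (1.84e-06), from 13.68 to 14.26 in control to 15.50 to 15.75 after H/R, Nfe2l2 by 1.51 ± 0.193 (3.71e-05) and Hif1a by 1.12 ± 0.147 (4.88e-05). Nfe2l2 lay below the negative controls' 95th percentile on every array, so the size of its difference is not exact. Myc, which is also known to drive folate genes, did not pass (-0.26 ± 0.131, 0.219, and -0.35 ± 0.131 with B12, 0.0736, called under quantile normalization at 0.0449).

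**Figure D5:**
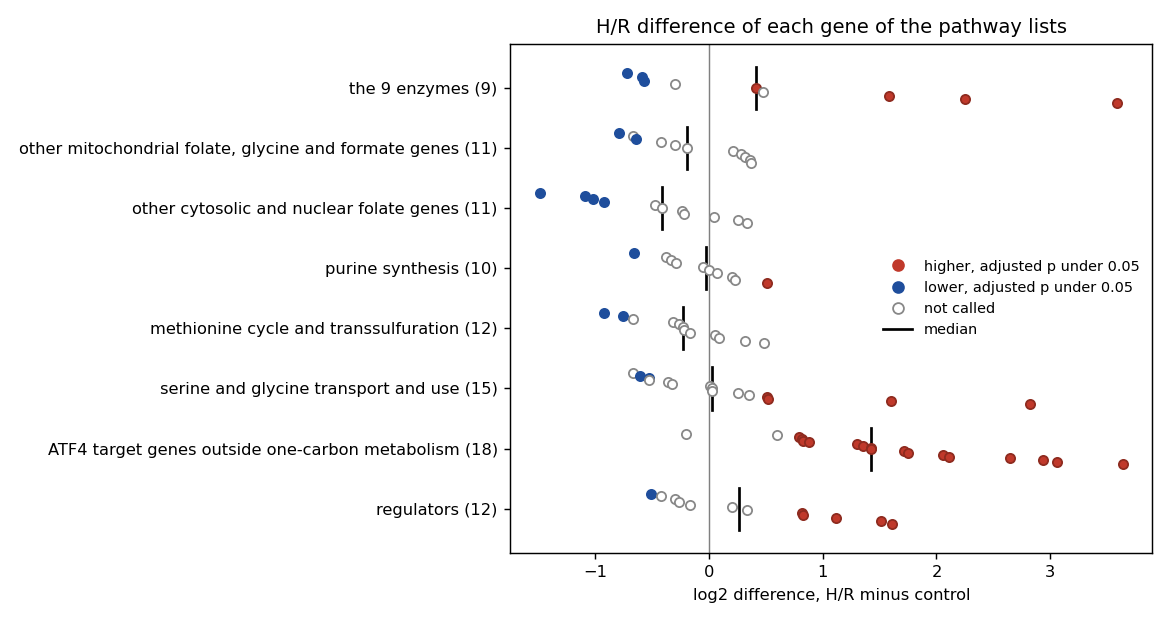
Log2 difference between H/R and control arrays for each gene of each list (points, coloured where the adjusted p was under 0.05), with the list's median (line) and its number of measured genes. Of the ATF4 targets 16 of 18 were higher. Of the list of cytosolic and nuclear folate genes, which also holds membrane carriers and receptors, 4 of 11 were lower.

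Over the 16 arrays the log2 signals most like that of Mthfd2 were those of Pawr (Pearson r = 0.990), Nrg1 (0.988), Msmo1, Tars and Fosl1 (each 0.987), with H/R differences of 1.41 ± 0.126 for Pawr to 3.36 ± 0.233 for Fosl1. The arrays share the split into H/R and normal culture, and within the 8 normal culture arrays r was 0.515 to 0.782 and within the 8 H/R arrays 0.505 to 0.675. Those most like Shmt1 were Chn2 (0.941), Slc39a11 (0.899), Cdc123 (0.890), Mccc1 (0.886) and Cdkn1b (0.877). Within normal culture Chn2 kept 0.797 and within H/R 0.945, whereas Cdc123 had -0.398 and 0.890. These are descriptions over few arrays and carry no test.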

How the data were processed

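Per the submitters' processing notes the authors used robust multi-array averaging (RMA) in Affymetrix Expression Console, and Transcriptome Analysis Console (versions not given in these sources). The deposited table holds log2 signal of 28846 features on 16 arrays, made from 700 pg RNA each. The 6640 control features (5222 negative) were left out and 22206 probe sets tested, 19572 of them with 1 gene symbol in the platform annotation and 2634 with none. No further normalization was applied.

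All 16 arrays were fitted as 4 groups with limma 3.58.1 in R 4.3.3 (empirical Bayes, total degrees of freedom 16.2), tested on simulated data. P-values are two-sided, Benjamini-Hochberg adjusted within each comparison, threshold 0.05. Alternatives were a replicate block, only the groups compared, array weights, an intensity trend with robust variances, quantile normalization, centring, leaving out the dimmest 25% of probe sets, 1 probe set per gene and each array left out in turn, and for the compartment score a median and a smaller cytosolic set. Named genes were the 9 enzymes, up to 3 of smallest p per list, Mtr, Tyms, Slc25a32, Gldc, Atf4 and Myc, and the 5 genes closest to Mthfd2 and to Shmt1. Slc46a1, Dld, Slc19a1, Gart, Atic, Mthfd2l, Amt, Sardh, Dmgdh, Mtfmt, Trib3, Chac1, Sesn2, Slc7a11, Atf5 and Gpt2 were named after their values were seen. Bounds ("at least"), added after the values were seen, set each array of the dim group at its negative controls' 95th percentile, or its own signal where higher, and compare group means. The members and lists were chosen with earlier results of these data known. The depth of an array is not a read count; 4 arrays a group limit the precision.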

Additional observations from a re-analysis of the deposited data

Results flagged for a closer look

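Each of 29 named genes was examined in each of the 4 groups, 116 tests in all, for 1 array far from the other 3 (Dixon's ratio above its 95% critical value, which chance exceeds in about 1 in 20 groups). The rule was met in 8 of the 116. Among the enzymes, Phgdh read 13.86 on control 4 against 14.04 to 14.07 on the others, Psat1 read 13.05 on control 1 against 12.45 to 12.5, and Mthfd1l read 10.68 on H/R+B12 4 against 11.26 to 11.36. Among the other genes, the methionine synthase Mtr read 10.25 on control+B12 2 against 10.69 to 10.77, the transporter Slc7a5 read 11.12 on control 1 against 10.01 to 10.16, and Atf4 read 15.75 on H/R 3 against 15.5 to 15.52. Folr1 read 4.59 on H/R 1 against 5.2 to 5.28, and Gldc read 3.08 on H/R+B12 2 against 2.73 to 2.75, both at dim signal. Control 1 was the high array for both Psat1 and Slc7a5, and also had the highest Mthfd2 signal of its group, 10.35.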

How the results depend on the processing

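No enzyme reversed direction in either H/R comparison under any alternative. Of 216 single-enzyme values in H/R against control, 183 kept their side of the threshold, 30 lost and 3 gained a call, and with B12 198 of 216 kept it, 17 lost and 1 gained. Of 207 averaged values 206 kept it. Members called ranged from 4 (without control 3 or H/R 1) to 7 over left-out arrays without B12, from 5 to 6 with B12 and from 8 to 9 averaged. The B12 comparisons called 0 members throughout, and 1 probe set in all for control+B12 against control without control 2 and for H/R+B12 against H/R without H/R 1, otherwise 0. With only Shmt1 and Mthfd1 as cytosolic enzymes the compartment contrast was 2.61 without B12, 2.40 with B12 and 2.50 averaged. As a median over enzymes it was -0.24 for H/R+B12 against H/R, and -0.20 for control+B12 against control, reversed from 0.05. The cause was not tested.

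Replicate numbers are shared by the groups, but the deviations of same-numbered arrays correlated at -0.072 to 0.0786 over 24 pairs, 0 of them above 0.1, so the numbers were not taken to pair the arrays. With a replicate block 5 members were called without B12 and 5 with B12, since Shmt1 (adjusted p = 0.06 by limma), Mthfd1 (0.0545) and Psat1 with B12 (0.0742) lost their calls, and the compartment contrast was 2.30 ± 0.143 and 2.20 ± 0.143.

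Dim signal limits Psph, Mthfd1 and Aldh1l2, which lay below the negative controls' 95th percentile on all 16 arrays, and Mthfd2 and Mthfd1l, which lay below it on all 4 control arrays: at least 8.36-fold and 1.82-fold higher after H/R against that floor. It also limits Shmt1, which exceeded that percentile on only 1 of 4 H/R and 3 of 4 H/R+B12 arrays.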
